A study of Homo sapiens with 12 samples.

Results

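Gene-poor mid-size H3K27me3 domains are stretches of the repressive histone mark that lie far from any protein-coding gene. They were chosen by vehicle H3K27me3 itself, as the contiguous intervals shared by both vehicle H3K27me3 peak lists on chromosomes 1 to 18 and 20 to 22, at least 2 kb and under 20 kb wide, in no coding gene body and over 50 kb from either end of every coding gene of the RefSeq GRCh38.p14 table. The rule found 2028 such domains among 28801 shared intervals. They were 7.04% of the shared intervals, came from the 11288 of that width, and held 11.1 Mb, or 9.56% of the shared length. The other 9260 mid-size intervals, in or within 50 kb of a coding gene, are called gene-near below and served as the set most like them.

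The cells were MKL-1, an established line from a Merkel cell carcinoma, a neuroendocrine skin cancer, that carries Merkel cell polyomavirus. Duplicate cultures received 3 µM EPZ011989, an inhibitor of the methyltransferase EZH2, for 6 days in 1% ethanol, and the vehicle cultures received 1% ethanol alone, with the medium renewed on day 3. Each culture was divided among H3K27me3, H3K4me3 and IgG antibodies for CUT&RUN, in which an antibody-tethered nuclease releases DNA next to the marked nucleosomes. The 12 libraries therefore formed 6 groups of 2, all from 1 cell line, so a spread between replicates covers repeated treatments of that line and may be in part technical.

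EZH2 is the catalytic subunit of Polycomb repressive complex 2, which writes H3K27me3 on silent chromatin, often in wide blankets around developmental transcription factor genes. H3K4me3 is the mark of active or poised promoters and is concentrated at CpG-rich gene starts. Long stretches without coding genes often hold distal enhancers and long noncoding RNA (lncRNA) genes of the developmental genes that flank them, so Polycomb marks there can lie over regulatory DNA as well as over noncoding transcripts.

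The promoters below belong to lncRNAs that start inside these domains. The first 5 lay in domains named in the H3K4me3 results below, none of which was called different between treatments. LINC02418 is the most CG-rich start in a domain that had no H3K4me3 peak in any library. Each is 300 bases of GRCh38.p14 from RefSeq, 250 before the start and 50 from it on, written 5′ to 3′ in the direction of transcription with every CG dinucleotide in capitals. They lie at chr17:72592755-72593054 (LINC00673, minus strand), chr18:55780372-55780671 (LINC01415, minus strand), chr9:21559749-21560048 (MIR31HG, minus strand), chr1:218164807-218165106 (LOC105372923, plus strand), chr1:88462638-88462937 (LOC105378839, plus strand) and chr12:130042293-130042592 (LINC02418, minus strand).
LINC00673: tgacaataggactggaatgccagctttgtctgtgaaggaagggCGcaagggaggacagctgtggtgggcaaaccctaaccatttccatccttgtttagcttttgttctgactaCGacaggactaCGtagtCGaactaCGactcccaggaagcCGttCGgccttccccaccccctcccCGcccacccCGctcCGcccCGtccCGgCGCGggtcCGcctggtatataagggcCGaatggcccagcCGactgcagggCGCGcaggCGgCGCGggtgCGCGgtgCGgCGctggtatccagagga
LINC01415: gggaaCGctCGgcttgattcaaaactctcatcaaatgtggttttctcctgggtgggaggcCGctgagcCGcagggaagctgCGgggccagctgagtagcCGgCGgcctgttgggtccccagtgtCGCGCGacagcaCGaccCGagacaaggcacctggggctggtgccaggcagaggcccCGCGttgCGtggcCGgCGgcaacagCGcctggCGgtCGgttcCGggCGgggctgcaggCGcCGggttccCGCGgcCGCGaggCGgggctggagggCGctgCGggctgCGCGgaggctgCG
MIR31HG: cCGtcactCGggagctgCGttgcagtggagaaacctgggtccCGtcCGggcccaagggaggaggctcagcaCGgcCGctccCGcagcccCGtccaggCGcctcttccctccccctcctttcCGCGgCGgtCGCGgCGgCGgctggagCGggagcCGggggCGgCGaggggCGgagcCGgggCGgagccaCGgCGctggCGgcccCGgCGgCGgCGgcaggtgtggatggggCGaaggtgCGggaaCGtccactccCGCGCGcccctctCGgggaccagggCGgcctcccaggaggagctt
LOC105372923: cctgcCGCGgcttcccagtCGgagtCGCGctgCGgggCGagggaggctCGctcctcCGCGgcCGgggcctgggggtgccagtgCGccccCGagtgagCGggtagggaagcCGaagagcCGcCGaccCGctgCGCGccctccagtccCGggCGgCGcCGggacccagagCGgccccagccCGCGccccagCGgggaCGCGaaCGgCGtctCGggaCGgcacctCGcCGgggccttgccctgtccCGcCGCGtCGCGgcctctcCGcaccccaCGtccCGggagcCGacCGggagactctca
LOC105378839: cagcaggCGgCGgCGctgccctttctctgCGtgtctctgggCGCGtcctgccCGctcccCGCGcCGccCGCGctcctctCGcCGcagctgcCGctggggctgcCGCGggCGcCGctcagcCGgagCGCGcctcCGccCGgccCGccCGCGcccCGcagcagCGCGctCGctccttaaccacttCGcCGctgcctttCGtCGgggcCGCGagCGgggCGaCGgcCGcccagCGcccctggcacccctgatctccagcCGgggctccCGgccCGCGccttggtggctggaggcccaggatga
LINC02418: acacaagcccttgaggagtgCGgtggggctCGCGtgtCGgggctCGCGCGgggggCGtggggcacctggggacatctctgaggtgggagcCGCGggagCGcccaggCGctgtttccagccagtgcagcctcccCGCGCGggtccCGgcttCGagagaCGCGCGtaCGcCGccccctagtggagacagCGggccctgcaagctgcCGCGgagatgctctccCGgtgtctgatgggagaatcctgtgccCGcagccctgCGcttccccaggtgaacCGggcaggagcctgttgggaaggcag

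These promoters held 26, 34, 39, 46, 46 and 29 CG dinucleotides in that order, against a median of 4 over all 12200 lncRNA promoters of the table. They are picked examples, and the 161 lncRNA starts in the domains had a median of 6. Of those starts, 32.9% had 10 or more, against 32.2% of all lncRNA promoters. Mature microRNAs encoded within the domains are shown next, as short RNAs that can be printed whole. They are RefSeq sequences with the seed, bases 2 to 8, in capitals, and no seed was shared between them.
hsa-miR-4425: uGUUGGGAuucagcaggaccau
hsa-miR-5087: gGGUUUGUagcuuugcuggcaug
hsa-miR-138-5p: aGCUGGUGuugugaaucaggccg
hsa-miR-4277: gCAGUUCUgagcacaguacac
hsa-miR-2392: uAGGAUGGgggugagaggug
hsa-miR-1-3p: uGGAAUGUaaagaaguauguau

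MIR138-1 (chr3:44114212-44114310, plus strand), whose product miR-138 is abundant in neurons, lay between ABHD5 and TOPAZ1. MIR1-1 (chr20:62554306-62554376, plus strand), the gene of a microRNA of heart and skeletal muscle, lay between GATA5 and SLCO4A1. MIR4425 lay between RUNX3 and SYF2, MIR5087 between NBPF11 and PPIAL4G, MIR4277 between LPCAT1 and MRPL36, and MIR2392 between the imprinted genes DLK1 and RTL1.

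Most of the domains lay in the lower part of the allowed width range. Their median folds, given below, lay between those of all shared intervals and those of gene-near domains. Their widths ran from 2000 to 19880 bp with a median of 4021 bp (quartiles 2757 and 6802 bp). Of the 2028 domains, 645 were under 3 kb and 245 were 10 kb or more. The nearest coding gene lay at a median of 121 kb (quartiles 75.1 and 215 kb), and 83 domains were over 500 kb from any. The most remote, chr18:29868655-29874646, was 1115 kb from DSC3 and 1692 kb from CDH2, a desmosomal and a neural cadherin gene.

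H3K27me3 enrichment is the authors' fold over background of the peak that holds a domain, used here as a description because these libraries chose the domains. Its median was 3.69 in vehicle replicate 1 (2.84 to 14.6) and 3.75 in replicate 2 (2.70 to 17.3). The gene-near domains had medians of 4.07 and 4.27, and the 814 intervals of 20 kb or more had 8.27 and 8.91. Over all 28801 shared intervals, of any width, the medians were 3.41 and 3.43. The folds of the 2 libraries were ranked alike over the 2028 domains (Spearman's rho 0.74), with the interval itself shared by construction. Wider domains had higher folds (rho 0.57), while distance from coding genes, always over 50 kb here, had almost no relation to fold (rho -0.02). The rho of distance and fold was -0.18 over all shared intervals, -0.20 in gene-near domains and -0.35 in intervals of 20 kb or more. Neighbouring domains can share a peak, so these are descriptions over domains that are not independent.

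Domain edges depended on the library. A domain equalled the whole vehicle peak in 839 cases in replicate 1 and in 282 cases in replicate 2, where the peaks that held the domains had median widths of 4801 and 6562 bp. In 186 domains the peak of at least 1 library was 20 kb or more, so those are pieces of a wide block that the other library broke up. The limits of the rule fell in a continuous range. The 20 gene-poor intervals just under 2 kb had a median mean fold of 3.32 and the 20 narrowest domains 3.38, the widest interval outside the lower limit was 1998 bp, and the narrowest beyond the upper limit was 20099 bp. Around the distance limit, the 20 intervals just within 50 kb had a median mean fold of 3.88 and the 20 just over it 3.70, with 49.99 and 50.03 kb as the distances nearest to the limit.

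The domains were gathered in a minority of the gaps between coding genes. Of 2658 gaps with any sequence over 50 kb from both sides, 614 (23.1%) held at least 1 domain. A set of 49 gaps with 10 or more domains held 744 of them (36.7%), and 281 gaps held a single one. The median spacing between neighbouring domains on a chromosome was 29.1 kb, and 704 of 2007 spacings (35.1%) were under 10 kb.

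Among the 6 fullest gaps, the first 2 in order stood on chromosome 1. The gap from PTPRU, a receptor tyrosine phosphatase gene, to MATN1, which encodes a cartilage matrix protein, held 44 domains of 2088 to 19880 bp, summing to 253 kb. The gap from POU3F1, a POU-domain factor of neural and Schwann cell development, to RRAGC, a Rag GTPase gene of amino acid sensing, held 43 domains at 62.2 per Mb of eligible sequence. That density compares with 1.84 per Mb over all eligible sequence.

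The other 4 gaps lay on chromosomes 12, 12, 1 and 11. LOC107984449 to TMEM132C held 30 domains, and TBX3, a T-box factor of limb and mammary development, to MED13L, a Mediator subunit gene, held 26. AJAP1, an adherens junction gene, to NPHP4, a cilium gene, held 25. PLET1 to NCAM1, the neural cell adhesion molecule CD56, held 24. Together these 6 gaps had 192 domains, or 9.47%. Of their domains, 4 in the PTPRU gap, 2 in the POU3F1 gap and 1 in the NCAM1 gap overlapped an H3K4me3 peak in any library, and the other 3 gaps had none.

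**Figure D1:**
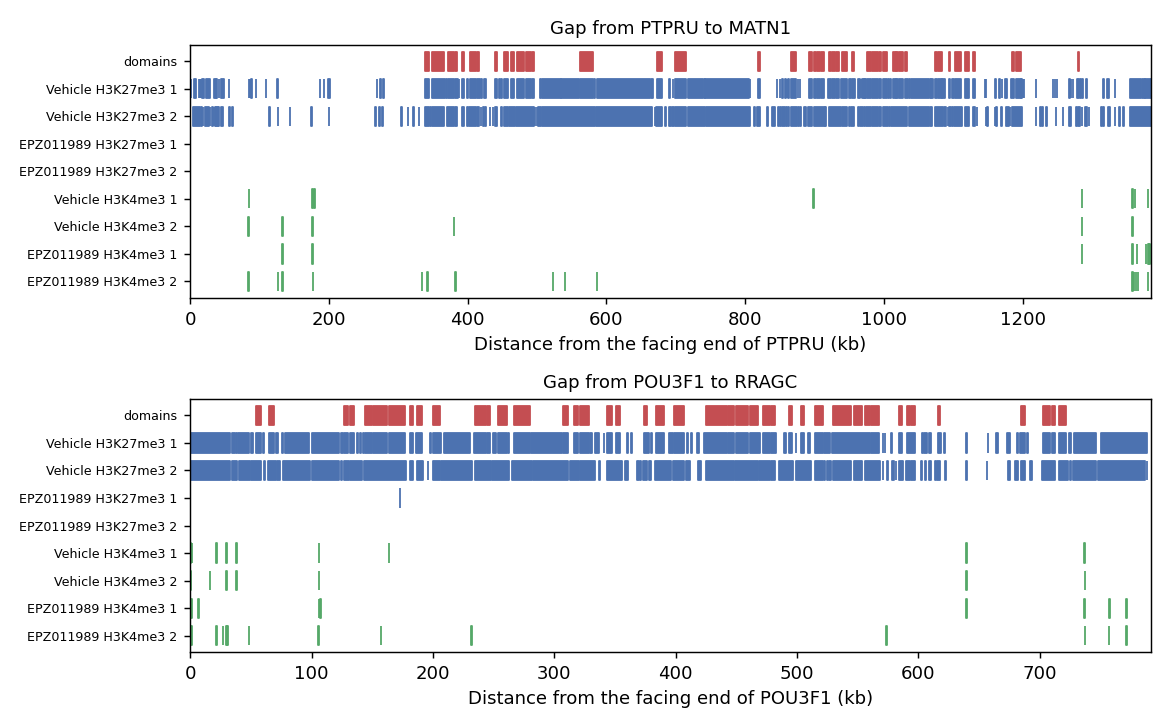
Maps of the 2 gaps with most domains, with distance in kb from the facing end of the left coding gene on the horizontal axis and 1 track per peak list; peaks too narrow for the scale are drawn at a minimum line width. Red blocks are the 44 and 43 domains, blue blocks H3K27me3 peaks and green blocks H3K4me3 peaks; both vehicle H3K27me3 tracks are densely filled, and the EPZ011989 H3K27me3 tracks hold a single narrow peak, in the POU3F1 gap of replicate 1.

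Domains were sparser per Mb of eligible sequence in larger gaps. Gaps with under 200 kb of eligible sequence held 5.07 domains per Mb, those of 200 kb to 1 Mb 2.98, those of 1 to 5 Mb 0.77 and the 11 gaps over 5 Mb, which include centromeres, 0.035. Of 269 gaps with over 1 Mb of eligible sequence, 180 (66.9%) had no domain. At least 1 domain lay in 17.4% of gaps with under 200 kb and 31.4% of those of 200 kb to 1 Mb. The share was 33.3% for 1 to 5 Mb and 27.3% over 5 Mb, so larger gaps were not empty more often than the smallest. By chromosome, with the gaps over 5 Mb left out, density was lowest on chromosome 4 (0.42 per Mb) and highest on chromosome 17 (8.49 per Mb) and chromosome 20 (7.71 per Mb). Gene-near domains, counted per Mb of the other sequence between the outermost coding genes, had their extremes on the same chromosomes. Their density was 2.74 per Mb on chromosome 4, 10.0 per Mb on chromosome 17 and 10.1 per Mb on chromosome 20. These densities describe where the intervals fell and were not tested.

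**Figure D2:**
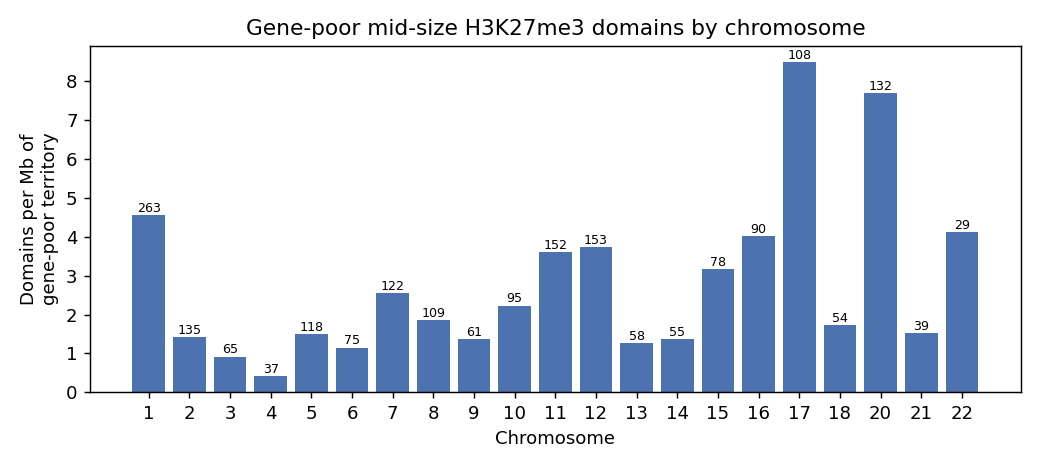
Bars give the gene-poor domains per Mb of eligible sequence (vertical axis, from 0) for each chromosome used (horizontal axis), with gaps over 5 Mb left out, and the number on each bar counts that chromosome's domains. Chromosomes 17 and 20 have the tallest bars, 8.49 and 7.71 per Mb, and chromosome 4 the shortest, 0.42 per Mb.

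The single widest domain, chr1:29888081-29907960, lay in the PTPRU to MATN1 gap with folds of 8.74 and 8.02. The next 7 in width were chr12:114546677-114566158 (TBX5 to TBX3), chr11:44458189-44477625 (ALX4 to CD82), chr18:7377710-7397121 (LRRC30 to PTPRM), chr11:11691523-11710917 (GALNT18 to USP47), chr18:78812619-78831927 (GALR1 to SALL3), chr17:56712246-56731342 (NOG to C17orf67) and chr20:22279014-22298061 (PAX1 to FOXA2). Several of these flanking genes encode developmental transcription factors (TBX5, TBX3, ALX4, SALL3, PAX1, FOXA2) and NOG encodes the BMP antagonist noggin. None of the 8 widest had an H3K4me3 peak in any library.

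By mean rank of fold over both vehicle libraries, the first was chr10:100652073-100665224, between HIF1AN and PAX2, a paired-box factor of kidney and eye, at 14.6 and 16.9. The domain chr13:112149682-112163536, beyond SOX1, a neural progenitor factor, followed at 14.4 and 15.1. Next came chr3:43988932-44006872, between ABHD5 and TOPAZ1, at 12.8 and 14.4, and chr7:155371314-155381198, between INSIG1 and the homeobox gene EN2, at 11.7 and 13.0. Further ones lay in the gaps CADM1 to BUD13, PANX1 to IZUMO1R and SIRPG to SIRPA. Of these 7, 6 overlapped an H3K4me3 peak in at least 1 library, against 9.52% of all the gene-poor domains. The INSIG1 to EN2 domain did so in vehicle replicate 1 alone (264 bp). The CADM1 to BUD13 domain did so in EPZ011989 replicate 2 alone (606 bp). A further domain of this ranking is not reported here and lies outside this count.

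Counted by their nearest coding gene, 774 genes had at least 1 domain, led by MATN1 with 29, TBX3 with 27 and XYLT1, a proteoglycan xylosyltransferase gene, with 24. Developmental transcription factors took a larger share of the gene-poor domains than of the gene-near ones. Homeobox genes were nearest to 84 domains (4.14%, against 1.66% of gene-near domains and 0.87% of coding genes), with 21 at POU3F1, 13 at PAX1 and 10 at MSX2. The list of SOX, forkhead, T-box, GATA and zinc-finger developmental factors was nearest to 121 (5.97%, against 1.53% and 0.87%), with 27 at TBX3, 10 at SOX9 and 9 each at GLI2, NFIA and NR2F2.

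Shares of the other lists were higher, alike or lower than in the gene-near domains. Growth factor and WNT, BMP and FGF signalling genes were nearest to 53 domains (2.61%, against 1.52% of gene-near ones), with 10 at BMP7, and cadherins to 27 (1.33% against 0.50%). Synaptic and axonal adhesion genes had 43 (2.12% against 1.86%) and genes named ZNF 41 (2.02% against 1.38%). Potassium, calcium and sodium channels had 17 (0.84% against 2.19%), axon guidance genes 9 (0.44% against 0.99%), glutamate, GABA and glycine receptors 10 (0.49% against 0.57%), chemokines, interferons and interleukins 6 (0.30% against 0.92%) and olfactory receptors 6 (0.30% against 0.75%). Domains that share a gap share a nearest gene, so these are counts of domains and not of independent genes.

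Noncoding genes lay over 738 of the domains (36.4%). An lncRNA gene overlapped 647 (31.9%), against 21.7% of the gene-near domains, and lncRNA genes covered 26.1% of the length of the gene-poor domains against 14.2% of the gene-near length. The domains touched 465 lncRNA genes, of which 46 lay wholly inside a domain. The longest overlaps were with LOC101929650 beyond METRNL (18521 bp), LINC02107 between GDNF and EGFLAM (17877 bp), LOC105378657 between POU3F1 and RRAGC (16827 bp), LOC105375268 between IGFBP3 and TNS3 (16603 bp) and LINC00508 between LOC107984449 and TMEM132C (16578 bp). These 5 domains each lay wholly in the lncRNA gene and had no H3K4me3 peak.

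Smaller noncoding genes were few. Pseudogenes overlapped 76 domains, 11 domains held 12 immunoglobulin or T cell receptor V segments, and 14 tRNA genes were touched. There were 10 microRNA genes, each wholly inside a domain of its own. Besides the 6 with sequences above, they were MIR124-1 and MIR124-2, which encode the neuronal miR-124, MIR1204 within PVT1, and MIR4291.

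Before the treated libraries are described, 1 paragraph covers the series. On the chromosomes used, the vehicle H3K27me3 lists held 38365 and 41695 peaks, the H3K4me3 lists 19116 to 21722, and the IgG lists 4 to 36. The EPZ011989 H3K27me3 lists held only 357 and 22 peaks. All 11 Merkel cell and neuroendocrine genes examined, such as KRT20, ATOH1, SOX2 and INSM1, had H3K4me3 within 2500 bp of a gene end in both vehicle libraries, 3 lymphoid genes had none, and 3 of 4 fibroblast genes had it, each of those also with H3K27me3.

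After 6 days of EPZ011989, H3K27me3 peaks were left in 4 of the 2028 domains in replicate 1, where they covered 1717 bp, and in 2 in replicate 2, where they covered 647 bp. The 6 domains are different ones and make 0.296%; over all shared intervals the same count came to 0.153%. Gene-near domains kept a peak in 9 cases in replicate 1 and 0 in replicate 2, and intervals of 20 kb or more in 25 and 0. No test is given because vehicle H3K27me3 chose the domains.

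A missing peak does not mean that no mark was left. The lowest fold in the EPZ011989 lists was 4.37 in replicate 1 and 4.36 in replicate 2, against 2.82 and 2.67 in the vehicle lists. Only 410 of the domains (20.2%) had vehicle folds above 4.37 in both libraries. The share was 17.2% of all shared intervals, 38.4% of the gene-near domains and 94.5% of the intervals of 20 kb or more. For the remaining domains, enrichment at the vehicle level would have lain under the lowest fold listed after treatment in at least 1 library, and depth is not given in the files.

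In replicate 1 the leftover peaks were 453 bp in chr16:16891045-16893840 (NPIPA7 to XYLT1), 444 bp in chr1:38210319-38223708 (POU3F1 to RRAGC), 417 bp in chr1:37390274-37407850 (GRIK3 to ZC3H12A) and 403 bp in chr7:54660742-54667026 (VSTM2A to SEC61G). In replicate 2 they were 351 bp in chr8:134938465-134950943 (ZFAT to KHDRBS3) and 296 bp in chr17:83182548-83192449, beyond METRNL. Their folds ran from 4.36 to 4.85 and their −log10 q from 1.17 to 1.97, close to the lowest values listed. The 351 bp peak, at chr8:134942231-134942581, was also listed with exactly these ends in vehicle IgG replicate 1, with a fold of 14.2, and in EPZ011989 IgG replicate 2, with a fold of 17.7. It was the only place where IgG peaks met the domains. In the same domain 351 bp were under H3K4me3 in vehicle replicate 1 and 0 bp in the other H3K4me3 libraries, and it counts among the domains with H3K4me3 below.

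H3K4me3, which the rule did not use, was sparse in the domains. A peak overlapped 117 and 121 of them in the vehicle libraries (5.77% and 5.97%) and 147 and 114 in the EPZ011989 libraries (7.25% and 5.62%). In the gene-near domains the shares were 27.5% and 28.0% with vehicle and 32.2% and 29.6% with EPZ011989. The gene-poor share was lower in 4 of 4 libraries, by 23.2 percentage points on average (SD 1.53, n = 4; exact two-sided sign-flip permutation test, p = 0.125, the smallest that 4 libraries can give). Distance from coding genes is part of the rule, and coding gene starts, where H3K4me3 is usual, are absent from these domains by construction.

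**Figure D3:**
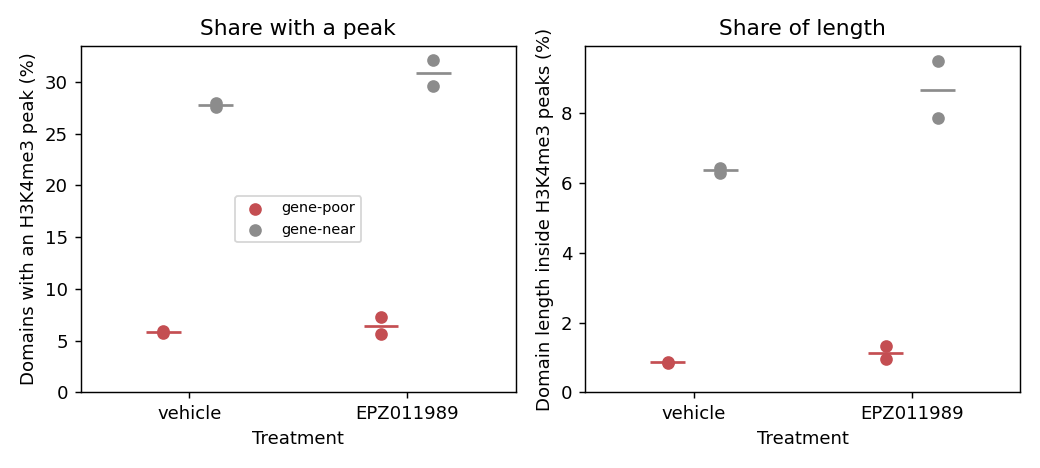
Points are the 4 H3K4me3 libraries, by treatment on the horizontal axis, and lines are group means; red is the gene-poor and grey the gene-near set, with the percent of domains holding a peak on the left and the percent of their length inside peaks on the right. The gene-poor points lie between 5.62% and 7.25% of domains, all far below the gene-near points at 27.5% to 32.2%.

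Between treatments, neither total could be separated. The number of domains with an H3K4me3 peak was 119 ± 2.83 with vehicle and 130.5 ± 23.3 with EPZ011989 (SD, n = 2 each; exact permutation test, two-sided, p = 1). EPZ011989 replicate 1 lay above both vehicle libraries and replicate 2 below both. The length inside H3K4me3 peaks was 94.0 and 95.2 kb with vehicle and 147 and 105 kb with EPZ011989, so here the groups did not overlap. The means were 94.6 ± 0.81 and 126 ± 30.2 kb (SD, n = 2 each; exact permutation test, two-sided, p = 0.333, the smallest that 2 against 2 libraries can give).

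Across all 4 libraries 193 domains (9.52%) had an H3K4me3 peak in at least 1, against 34.1% of the gene-near domains, and 1835 had none. The peak was present in 1 library in 66 domains, in 2 in 23, in 3 in 29 and in all 4 in 75 (3.70%, against 25.5% of gene-near domains). Domains with a peak were wider, with a median of 5745 bp against 3907 bp, and had higher vehicle H3K27me3 folds, with medians of 4.59 and 4.70 against 3.65 and 3.69. A wider domain offers more room for a peak, which was not adjusted for. Where a peak was present its length in the domain had medians, by library, of 648 and 613 bp with vehicle and of 801 and 701 bp with EPZ011989, against 1154 to 1507 bp in gene-near domains.

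In 52 of the 193 domains (26.9%) both EPZ011989 libraries had more H3K4me3-covered sequence than both vehicle libraries, against 39.8% of all shared intervals with an H3K4me3 peak. In 7 (3.63%) both had less, against 2.79%. Among the 75 domains marked in every library, EPZ011989 replicate 1 exceeded both vehicle libraries in 54 and lay under both in 6, whereas replicate 2 exceeded both in 35 and lay under both in 21. The median covered length in these 75 was 927 bp with vehicle and 1128 bp with EPZ011989. The direction thus leaned on replicate 1, whose H3K4me3 list also covered more of the chromosomes used, 42.1 Mb against 35.6 Mb in replicate 2 and 37.4 and 38.3 Mb in the vehicle lists. The part of this total in the domain values was not tested.

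**Figure D4:**
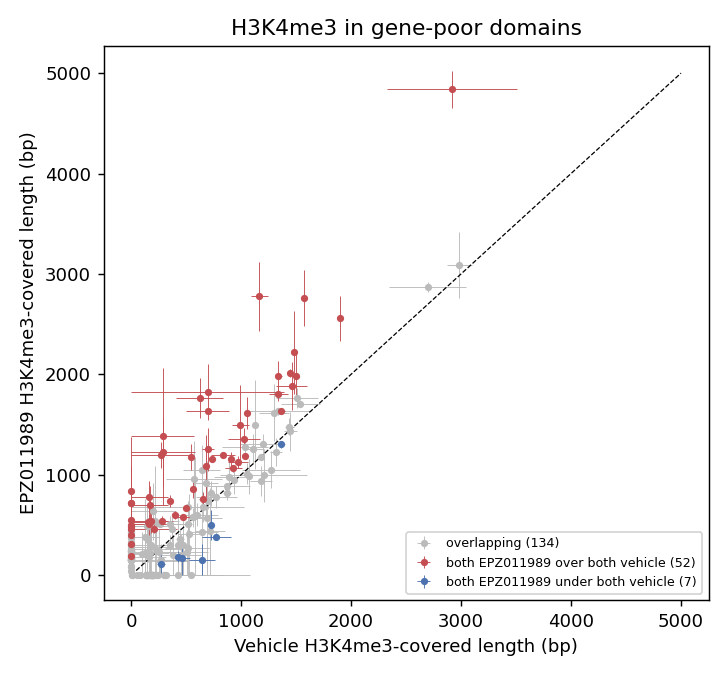
Each point is 1 of the 193 domains with H3K4me3 in any library, with the mean covered length (bp) in the vehicle libraries on the horizontal and in the EPZ011989 libraries on the vertical axis; bars join the 2 replicates and the dashed line marks equality. Red points are the 52 domains with both EPZ011989 values over both vehicle values, blue points the 7 with both under, and grey points the 134 that overlapped; the highest point is chr3:43988932-44006872.

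The limma fit over all 5597 shared intervals with an H3K4me3 peak, with Benjamini-Hochberg adjustment at 0.05, called 72 higher with EPZ011989 (1.29%) and 14 lower (0.25%). Of the 193 gene-poor domains tested, 1 was called higher and 0 lower. Before adjustment, 23 domains had a p under 0.05 with a higher value and 1 with a lower one, with 14.6% and 1.14% over all intervals tested. In 13.6% of the intervals tested the replicates of both groups had equal values, so these intervals show no spread of their own, yet they stayed in the fit.

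The called domain, chr6:10266970-10270291, lies between SLC35B3, a sulfate donor transporter gene, and TFAP2A, an AP-2 factor of neural crest and epidermis. It had no H3K4me3 in either vehicle library and 394 and 411 bp in the EPZ011989 libraries. The difference was 402.5 bp (SE 8.55; limma with Benjamini-Hochberg adjustment, adjusted p = 0.0166; higher in 2 of 2 treated libraries). The SE is small because it rests on 2 equal vehicle values of 0 and 2 treated values close together. Leaving out 1 vehicle library kept the difference at 402.5 bp, and leaving out 1 EPZ011989 library gave 411 or 394 bp. The call was lost with only peaks of −log10 q of 5 or more (197 bp, limma adjusted p = 0.635). It was also lost in limma with the replicate block (adjusted p = 0.203), with quantile normalization (adjusted p = 0.206) and with 2500 bp flanks (adjusted p = 0.288).

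That domain was 1 of 10 (0.493%) with a peak in both EPZ011989 libraries and in neither vehicle library, against 0.861% of all shared intervals. The opposite, loss in both EPZ011989 libraries of a peak that both vehicle libraries had, occurred in 0 domains, against 0.187%. The 10 were named after their values were seen. The domain first by mean rank of vehicle H3K27me3 fold, between HIF1AN and PAX2, was among them, with 1378 and 299 bp. Another, chr8:64376394-64381061, holds MIR124-2 and had 1013 and 426 bp. LOC105378839, whose promoter is shown above, starts in chr1:88459042-88466233, between LMO4, a LIM-only factor gene, and PKN2, where 631 and 360 bp were covered; the start itself was under a peak in EPZ011989 replicate 1 alone.

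The other 6 were chr3:127453452-127456748 (PRR20G to TPRA1, 360 and 1082 bp), chr12:8388496-8390699 (FAM90A1 to CLEC6A, 575 and 525 bp), chr5:73302072-73304984 (TMEM174 to FOXD1, 557 and 407 bp), chr11:122555521-122558889 (BLID to UBASH3B, 441 and 483 bp), chr5:154598739-154615979 (HAND1 to LARP1, 291 and 328 bp) and chr1:207963960-207967985 (CD34 to PLXNA2, 203 and 178 bp). FOXD1 and HAND1 encode a forkhead and a basic helix-loop-helix developmental factor. The limma adjusted p of the 9 domains other than the called one ran from 0.0508 to 0.596 with Benjamini-Hochberg adjustment.

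The largest H3K4me3 difference without overlap between groups was in chr3:43988932-44006872, between ABHD5 and TOPAZ1, at lower coordinates than MIR138-1. It had 3508 and 2325 bp with vehicle and 5020 and 4655 bp with EPZ011989, a difference of 1921 bp (SE 575; limma with Benjamini-Hochberg adjustment, adjusted p = 0.348). The domain of MIR138-1 itself, chr3:44112058-44120029, had no H3K4me3 in any library.

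Next was chr17:72586640-72595817, between SOX9, a factor of cartilage and neural crest, and SLC39A11, a zinc transporter gene. Its values were 1086 and 1243 bp with vehicle and 3123 and 2436 bp with EPZ011989 (difference 1615 bp, SE 327; limma with Benjamini-Hochberg adjustment, adjusted p = 0.254). The LINC00673 start shown above lies in it and was under an H3K4me3 peak in all 4 libraries.

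Between SIRPG and SIRPA, signal regulatory protein genes, chr20:1799467-1812164 had 1571 and 1574 bp with vehicle and 3038 and 2480 bp with EPZ011989. The neighbouring domain chr20:1776942-1792889 had 701 and 745 bp with vehicle and 652 and 349 bp with EPZ011989. Within 1 gap, then, the values of the first lay higher with treatment and those of the second lower, in both treated libraries. Neither passed the limma threshold with Benjamini-Hochberg adjustment (adjusted p = 0.267 and 0.619), though the first passed it without EPZ011989 replicate 1 (907.5 bp, adjusted p = 0.0443) or replicate 2 (1465.5 bp, adjusted p = 0.0199). Without vehicle replicate 1 or 2 that difference was 1185 or 1188 bp. Each omission leaves 1 library in a group, so no p is given for it.

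In chr18:55774086-55784494, between TCF4, a neuronal basic helix-loop-helix factor gene, and TXNL1, the values were 410 and 833 bp with vehicle and 1567 and 1962 bp with EPZ011989 (limma with Benjamini-Hochberg adjustment, adjusted p = 0.284). The LINC01415 start printed above was under a peak in vehicle replicate 2 and both EPZ011989 libraries. The domain with MIR1204 and part of PVT1, chr8:127793951-127796703, between MYC and GSDMC, had 1388 and 0 bp with vehicle and 2099 and 1542 bp with EPZ011989.

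Of the other 3 with the largest positive differences, chr2:121070892-121086585 lies between GLI2, a transcription factor of hedgehog signalling, and TFCP2L1, and had 0 and 570 bp with vehicle and 2060 and 701 bp with EPZ011989. The domain chr12:94870533-94876599 (TMCC3 to NDUFA12) had 893 and 496 bp against 1611 and 1657 bp. The domain chr11:94235405-94239061 (PANX1 to IZUMO1R) had 578 and 0 bp against 887 and 1564 bp. In each, both treated values were above both vehicle values, and replicates of 1 or both groups lay far apart.

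Among the 7 domains with both treated values under both vehicle values, the 4 largest differences were smaller in size than those above. The domain chr17:70621546-70625538, between the potassium channel gene KCNJ2 and SOX9, had 522 and 761 bp with vehicle and 307 and 0 bp with EPZ011989 (difference -488 bp, SE 181; limma with Benjamini-Hochberg adjustment, adjusted p = 0.421). Beside the GLI2 domain above, chr2:121088271-121090948 had 904 and 645 bp against 419 and 346 bp. The domain chr4:174083821-174089970, between HAND2 and FBXO8, had 388 and 537 bp against 343 and 0 bp. In chr1:234780416-234782565 (IRF2BP2 to TOMM20) 471 and 389 bp stood against 236 and 131 bp, a difference of -246.5 bp that became 118 bp when only peaks of −log10 q of 5 or more were used.

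Some domains carried much H3K4me3 in both treatments. The domain chr6:28831863-28841521, between SCAND3 and TRIM27, had 2868 and 3099 bp with vehicle and 3414 and 2763 bp with EPZ011989, and it holds the tRNA gene TRA-AGC2-1. In chr3:107428690-107433366, between CCDC54 and BBX, 2347 and 3048 bp stood against 2918 and 2818 bp. In both, the groups overlapped. The MIR5087 domain had 913 and 908 bp against 1221 and 1090 bp, and that of MIR1-1 had 432 and 0 bp against 1082 and 0 bp.

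Some of the H3K4me3 lay over lncRNA starts. The promoter table placed 161 starts of 145 lncRNA genes in 134 domains (6.61%). A peak lay over 16 and 21 of the 161 starts in the vehicle libraries (9.94% and 13.0%) and over 25 and 19 in the EPZ011989 libraries (15.5% and 11.8%). Of 888 lncRNA starts in gene-near domains the shares were 39.6%, 40.3%, 51.4% and 46.7% in the same order. Domains that held a start overlapped a peak in 17.9% to 23.1% of cases by library, against 4.75% to 6.12% of the 1894 with none, and 90 to 116 domains per library had a peak but no listed start.

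The lncRNA starts under H3K4me3 were rich in CG. Over the 26 starts with a peak in any library the median was 24.5 CG dinucleotides in 300 bases, and 24 of the 26 (92.3%) had 10 or more. These 26 starts belong to 23 genes, and some of their 300-base stretches overlap, so they are not independent. Over the 135 with no peak the median was 5, and 29 (21.5%) had 10 or more. The share with 10 or more was 32.2% over all lncRNA promoters and 55.3% over all 31808 promoters. The letters TATAAA, searched on both strands, were in 0 of the 26, in 21 of the 135 (15.6%), in 15.3% of all lncRNA promoters and in 11.9% of all promoters.

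**Figure D5:**
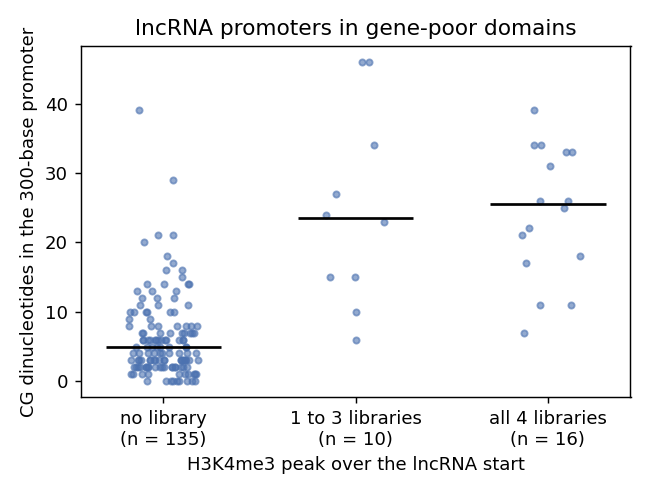
Each point is 1 of the 161 lncRNA starts inside gene-poor domains, placed by the number of H3K4me3 libraries with a peak over the start (horizontal axis) and by the CG dinucleotides in its 300-base promoter (vertical axis), with black lines at the medians. The medians are 5 for the 135 starts under no peak, 23.5 for the 10 under a peak in 1 to 3 libraries and 25.5 for the 16 in all 4.

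MIR31HG, the host transcript of miR-31, starts in chr9:21554990-21567616 between IFNE and MTAP, with 39 CG dinucleotides. That domain had 1503 and 1465 bp under H3K4me3 with vehicle and 2635 and 1808 bp with EPZ011989 (limma with Benjamini-Hochberg adjustment, adjusted p = 0.540). LOC105372923, in chr1:218158171-218174888 between SPATA17 and RRP15, had 0 and 547 bp with vehicle and 1324 and 1070 bp with EPZ011989 (adjusted p = 0.353 by limma). LINC02418 lies between TMEM132D and FZD10, a WNT receptor gene, and its 29 CG dinucleotides were under no peak.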

How the data were processed

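The deposited files were 1 MACS2 peak list per library, so peaks were called per sample; broad lists held H3K27me3 and narrow lists H3K4me3 and IgG. Per the submitters' processing notes, hg38, Bowtie2 2.2.9, SAMtools 0.1.19, FastQC and MACS2 2.1.1.20160309 were used. The control, cutoff, depth and any use of the E. coli spike-in are not given in the sources used here. Each list gives the authors' score, the authors' fold enrichment (a ratio per peak) and deposited −log10 p and q values; positions were deposited 0-based and are printed 1-based.

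Vehicle H3K27me3 lists were intersected and filtered against the RefSeq GRCh38.p14 gene table (Python 3.11.15, pandas 2.3.3, scipy 1.17.1). H3K4me3 was measured as bp of each interval inside peaks, without scaling between libraries, and tested with limma 3.58.1 (R 4.3.3; trend, robust) over all shared intervals with an H3K4me3 peak in any of the 4 libraries, Benjamini-Hochberg adjusted at 0.05. The script was tested on simulated data. Totals used exact permutation tests over libraries. The limma fit and the totals used the same 4 H3K4me3 libraries, so they are not independent.

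Domains, gene lists and tests were chosen with earlier results of these data known. Named were the 8 widest domains, the 8 with highest mean fold rank, all with H3K27me3 left, the 8 largest positive and 4 largest negative H3K4me3 differences without overlap, the 6 fullest gaps, the longest noncoding overlaps and every microRNA gene; other domains were named after their values were seen. One of the domains with the highest fold rank is not reported here. Alternatives were a replicate block, quantile normalization, log2(bp + 100), peaks of −log10 q of 5 or more, 2500 bp flanks, a 200 bp overlap, other distance limits, joining within 500 bp and leaving out each library. A fit without the filter could not be made, because most intervals then have no spread. Of the genes and microRNAs, only those with a RefSeq table entry have a printed sequence.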

Additional observations from a re-analysis of the deposited data

How the results depend on the processing

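With the replicate block limma called 0 intervals higher, 0 lower and 0 gene-poor domains, against 72, 14 and 1. The deviations of same-numbered libraries had a correlation of -0.02 over domains. With 2 libraries per group, this cannot show whether same-numbered libraries were handled together. Quantile normalization gave 32 higher, 2 lower and 0 domains, and it moved the median difference from 170.5 to -94 bp over all intervals and from 147.5 to -30.5 bp over the domains, so no general gain or loss of covered length can be read from these lists; log2 values gave 149, 27 and 6, 2500 bp flanks 14, 0 and 0, and stricter q 6 lower. Where limma called 0, unadjusted p under 0.05 counted 625 higher and 61 lower intervals and 14 and 3 domains with the block, 14 and 11 domains with quantile normalization, and 40 lower intervals and 27 and 1 domains with flanks. Leaving out 1 library gave 77 to 827 higher, 14 to 181 lower, 1 to 42 domains higher and 0 to 16 lower; the lone library is then assumed to vary like the other group. Over the same single-library omissions the mean difference in domains with a peak was -5 to 28 and reversed to -5 without EPZ011989 replicate 1, the covered-length difference was 10.1 to 52.8 kb, and the gap to gene-near shares was -23.7 to -22.6 points; that gap was -28.3 points with flanks and -22.3 with stricter q. With stricter q the difference at the IRF2BP2 to TOMM20 domain turned to 118 bp, and with flanks to 372 bp. Domains with H3K27me3 left fell from 6 to 0 with stricter q and were 2 to 4 in single libraries. The rule itself gave 322 domains with stricter q, 1211 over 100 kb and 2890 over 25 kb from genes, and 2538 to 2947 from single vehicle libraries; the cause of these changes was not tested beyond the fewer peaks or samples that each setting leaves. The lists carry no read counts, so depth and enrichment below the listing threshold are unknown.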
